A study of Drosophila melanogaster with 2 samples.

Results

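Divergent promoter peaks are the Fer3 peaks that lie where 2 neighbouring genes start close together and are transcribed away from each other. They were taken from the reproducible peak list of a chromatin immunoprecipitation experiment, as the peaks whose summit lay within 500 bp of starts of at least 2 different protein-coding genes, with at least 1 start on each strand. In all, 835 of the 5636 reproducible peaks met this rule, which is 14.8% (95% interval 13.9 to 15.8). The embryos came from a transgenic Drosophila melanogaster line, strain Fer3, that stably expresses the transcription factor Fer3 with GFP fused to its C terminus. Whole embryos aged 6 to 24 h were used, their chromatin was sonicated to 200 to 800 bp, and Fer3 was precipitated with an antibody against GFP. The only group consisted of 2 biological replicates, and the lists of both were made against 1 shared control alignment. Cell types were not separated, and the sequence that drives the fusion gene is not given in the sources used here.

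Each replicate list held 30000 peaks. These lists give no read counts, and the depth of the libraries is therefore unknown. Peaks are not replicates of a condition. The intervals of shares below are therefore exact Clopper-Pearson 95% intervals, and those of densities exact Poisson 95% intervals. They cover counting error over peaks only, and no p-value is given. Some shares are printed without their interval. Coordinates are on dm6, counted from 1. The comparison classes are the 1696 reproducible peaks at single-direction promoters, whose nearby starts did not meet the rule for divergent promoters, and the 3105 reproducible peaks with no protein-coding start within 500 bp.

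Divergent promoters are common in the compact fly genome. A single stretch of DNA serves as the upstream region of both genes, and many of the genes in such pairs have housekeeping roles. Fly housekeeping promoters often carry the DNA replication-related element (DRE), which is bound by the factor DREF, or Motif 1, which is bound by M1BP, in place of a TATA box. Fer3 belongs to the basic helix-loop-helix (bHLH) family, whose members bind sites of the form CANNTG, called E-boxes.

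The stretches between the starts of 6 divergent promoter peaks are printed first, because they show the 3 kinds of sequence that the motif results turn on. They run from the minus-strand start to the plus-strand start, without the starts themselves, and are written 5′ to 3′ on the plus strand of the reference genome (Release 6, dm6). Capitals mark the DRE (TATCGATA) or Motif 1 (GGTCACACT, or its complement on the other strand). The first pair of sequences belongs to the highest peaks with a DRE in the summit window, which reaches 50 bp to each side of the summit. RpS25, a protein of the small cytosolic ribosomal subunit, and CG4820 share chr3R:11216288-11216534, and the peak ranked 516 with its summit at base 60 of the stretch. RpL34a, a protein of the large subunit, and Trmt61, a tRNA methyltransferase subunit, share chr3R:26059268-26059495, and the peak ranked 772 with its summit at base 66. The second of its 2 DREs lies at the far end from the summit.
RpS25/CG4820: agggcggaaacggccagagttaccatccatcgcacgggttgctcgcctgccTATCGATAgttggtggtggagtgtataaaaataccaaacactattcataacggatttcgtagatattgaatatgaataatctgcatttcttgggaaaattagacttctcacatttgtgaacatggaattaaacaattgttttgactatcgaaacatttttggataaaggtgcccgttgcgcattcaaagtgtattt
RpL34a/Trmt61: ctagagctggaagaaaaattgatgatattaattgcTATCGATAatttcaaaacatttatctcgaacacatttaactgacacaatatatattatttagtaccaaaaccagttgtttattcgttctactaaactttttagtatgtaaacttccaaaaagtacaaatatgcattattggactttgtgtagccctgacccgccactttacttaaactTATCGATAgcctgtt
The next 2 belong to peaks with Motif 1 in the window. CG13690 and RpLP1, an acidic protein of the ribosomal stalk, share chr2L:419653-419951, and the peak ranked 1108 with its summit at base 274. Mi-2, a nucleosome remodelling ATPase, and Prp3, a splicing factor, share chr3L:19910216-19910299, and the peak ranked 4311 with its summit at base 29, with no overlapping peak in replicate 1.
CG13690/RpLP1: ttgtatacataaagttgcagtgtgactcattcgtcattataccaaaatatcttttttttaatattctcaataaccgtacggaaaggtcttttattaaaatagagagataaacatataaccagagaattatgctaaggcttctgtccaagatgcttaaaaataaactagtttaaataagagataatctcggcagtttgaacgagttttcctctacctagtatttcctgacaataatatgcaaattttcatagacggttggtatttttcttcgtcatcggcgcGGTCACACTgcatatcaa
Mi-2/Prp3: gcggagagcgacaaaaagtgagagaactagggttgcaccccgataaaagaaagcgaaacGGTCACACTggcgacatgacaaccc
The last 2 belong to high peaks with none of the 12 searched motifs in the summit window, and so carry no capitals. Art3, an arginine methyltransferase, and mRpS10, a protein of the small mitochondrial ribosomal subunit, share chr3R:15229409-15229664, and this was the highest of all divergent promoter peaks, at rank 6 of the reproducible list. Mnat9, a microtubule-associated N-acetyltransferase, and CG1792 share chr3R:31616161-31616302, at rank 61.
Art3/mRpS10: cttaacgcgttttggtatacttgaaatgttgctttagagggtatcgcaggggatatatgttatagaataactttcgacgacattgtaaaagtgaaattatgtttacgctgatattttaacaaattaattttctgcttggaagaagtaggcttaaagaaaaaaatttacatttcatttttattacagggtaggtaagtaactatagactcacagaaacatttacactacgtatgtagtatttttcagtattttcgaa
Mnat9/CG1792: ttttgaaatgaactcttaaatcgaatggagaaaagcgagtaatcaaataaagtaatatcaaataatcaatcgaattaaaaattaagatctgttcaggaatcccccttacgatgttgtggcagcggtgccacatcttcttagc

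Fer3 peaks were denser at divergent promoters than at other promoters. Bases that met the rule for divergent promoters made up 1.67 Mb, or 1.22% of the genome bases and 10.9% of all promoter bases, while divergent promoter peaks made up 33.0% of all promoter peaks (31.2 to 34.9). Divergent promoter bases held 499 peaks per Mb (465 to 534), single-direction promoter bases held 124 per Mb (118 to 130), and the genome as a whole held 41.0 per Mb. The density at divergent promoters was thus 4.02 times that at single-direction promoters and 12.2 times that of the genome. Divergent bases also lie nearer to a start on average, since they are within reach of starts on both sides, and the part of this in the ratio was not tested beyond the change of distance reported in the closing section.

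The density differed among chromosome arms. Divergent promoter bases held 569 peaks per Mb on 3R (499 to 646), 546 on 3L (467 to 634), 510 on 2L (436 to 592) and 463 on 2R (393 to 541). The X chromosome, with 96 divergent promoter peaks, held 372 per Mb (301 to 454), the lowest of the 5 large arms. Its interval overlaps those of 2L and 2R and lies below those of 3L and 3R. Among the 5636 highest peaks of 1 replicate, the value on X was 317 per Mb in replicate 1 and 364 in replicate 2, again the lowest of these arms in both. Single-direction promoters did not share this order, since they held 128 peaks per Mb on X and 121 to 128 on the other large arms. Chromosome 4 held 1 divergent promoter peak and Y held none.

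The 835 peaks touched 1674 genes. In all, 792 peaks had starts of 2 genes within 500 bp and 43 had 3 or more, up to 10. Taking the nearest start on each strand, they fell on 811 gene pairs, of which 787 had 1 peak and 24 had 2. A reproducible summit lay within 500 bp of a start in 22.6% of all 13968 protein-coding genes, and a divergent promoter peak in 12.0%. Genes with a head-to-head partner within 1 kb, which means a start of another gene on the opposite strand, pointing away, had a summit in 38.2% of cases (1895 of 4958, 36.9 to 39.6). Genes with no opposite-strand start within 1 kb had one in 13.6% (1201 of 8827, 12.9 to 14.3). A summit near the start of 1 gene of a pair can also lie within 500 bp of the partner's start. It then counts for both genes, so part of this contrast is built in, and the size of that part was not tested.

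Seen from the gene pairs, occupancy differed with the distance between the starts. There were 2615 head-to-head pairs with starts up to 1 kb apart, and 840 of them (32.1%, 30.3 to 34.0) had a reproducible summit within 500 bp of both starts. The gap between the starts had a median of 274 bp in these pairs and 333 bp in the 1775 pairs without such a summit. To give every gap the same search window, summits were also counted within 250 bp of the midpoint of each pair. In bins of 100 bp that leave out their lower bound, 48.0% of the 529 pairs with gaps of 200 to 300 bp had a peak (43.7 to 52.4), as did 48.0% of the 394 pairs with gaps of 300 to 400 bp (42.9 to 53.0). The share was 25.8% for gaps of 1 to 100 bp, 27.7% for 100 to 200 bp, 32.3% for 400 to 500 bp and 27.9% for 500 to 600 bp. It was 20.4% at 600 to 700 bp and 10.8% at 900 to 1000 bp. Pairs of 2 histone genes, none of which had a peak, were kept in these bins. Most of them had gaps of 100 to 200 bp, which lowers the share of that bin. Both replicates gave the same high bins: among their 5636 highest peaks, pairs with gaps of 200 to 300 bp had a peak in 44.4% of cases in replicate 1 and in 49.1% in replicate 2, and pairs with gaps of 300 to 400 bp in 46.7% and 46.2%. The base composition moved with the gap as well. The mean GC content of the window 50 bp to each side of the midpoint was 27.6% at gaps of 200 to 300 bp and 28.0% at 300 to 400 bp, against 44.2% at 1 to 100 bp and 36.3% at 900 to 1000 bp. Its part in the occupancy was not tested.

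**Figure D1:**
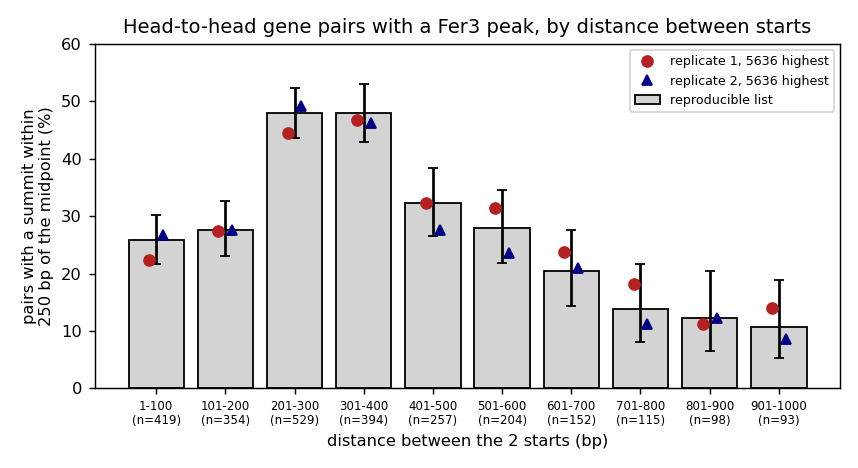
Share of head-to-head gene pairs with a Fer3 summit within 250 bp of the midpoint (y axis, %) by the distance between the starts (x axis, bp, with the number of pairs). Bars are the reproducible list with exact 95% binomial intervals, circles and triangles are the 5636 highest peaks of replicates 1 and 2; the bins of 200 to 300 and 300 to 400 bp are the highest, at 48.0% each. Pairs of histone genes are included.

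Pairs without a reproducible peak were not all empty. Of the 1775, 515 (29.0%) had a peak of the longer pooled list within 500 bp of both starts. None of the 42 head-to-head pairs of 2 histone genes had a reproducible summit within 500 bp of both starts. Most are near-identical copies of 1 repeated cluster, and reads from such copies cannot be told apart. Gene pairs whose 5′ ends overlap, with the plus-strand start to the left, numbered 105, and 26 of them (24.8%) had a summit within 500 bp of both starts.

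The summits lay mostly between the starts. Of the 835 peaks, 815 had their nearest starts head to head and 20 had overlapping 5′ ends. The summit was between the nearest minus-strand and the nearest plus-strand start in 677 (81.1%, 78.3 to 83.7), while 40.4% of the divergent promoter bases lie in such a place. With all annotated starts within 500 bp counted instead of the nearest, 774 summits (92.7%, 90.7 to 94.4) were upstream of at least 1 start on each strand, against 45.7% of the bases. By the nearest starts, the summit lay downstream of 1 start in 152 peaks and downstream of both starts in 6. The minus-strand start was nearer in 425 peaks, the plus-strand start in 408, and both were equally near in 2.

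The distance to the starts was narrow. The nearest start was a median of 99 bp away (quartiles 56 and 132), against 160 bp (79 and 276) at single-direction promoters. The farther of the 2 starts was a median of 194 bp away. A divergent promoter offers 2 starts, so its nearest one is closer by construction. In a band of 75 to 175 bp upstream of the nearest start, chosen after seeing the data, lay 427 divergent promoter summits (51.1%, 47.7 to 54.6) and 430 single-direction summits (25.4%, 23.3 to 27.5). In 187 divergent promoter peaks (22.4%, 19.6 to 25.4) the summit was in that band for both starts at once. This held for 38 of the 100 highest and 11 of the 100 lowest of them (95% intervals 28.5 to 48.3% and 5.62 to 18.8%). A summit in the band for both starts also restricts the gap between them, and the band came from these same summits. The contrast is therefore descriptive only.

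The gap itself bounds how far a summit between the starts can be from the nearest one, so the position is given within each gap. At gaps of 200 to 300 bp, 92.2% of 257 summits were between the starts, at a median of 25 bp from the midpoint and 100 bp from the nearest start. At 300 to 400 bp, 94.2% of 189 were between, 120 bp from the nearest start, and at 400 to 600 bp, 94.6% of 167, 139 bp from it. In these wider gaps the midpoint was 56.5 and 99.8 bp away. If summits were spread evenly between the starts, the median distance to the nearest start would be about the median gap divided by 4. The observed median was 1.58 times that value at gaps of 200 to 300 bp and 1.37 times at 300 to 400 bp. It was 1.15 times at 400 to 600 bp, against 1.08 times at 1 to 100 bp and 1.04 times at 100 to 200 bp. At 600 to 1000 bp it was 1.42 times, but these gaps are wider than the distance limit of the rule for divergent promoters. A summit there must lie within that limit of both starts, which keeps it away from each start. The value at 600 to 1000 bp therefore cannot tell a central position from an even spread. The same limit acts on the widest gaps of the 400 to 600 bp bin. At gaps of 1 to 100 bp, 27.0% of 89 summits were between the starts, and at 100 to 200 bp 62.5% of 88. The peaks were also higher where the gap was 200 to 300 bp, with a median rank of 1719, against 2458 at 1 to 100 bp, 2298 at 100 to 200 bp, 2152 at 300 to 400 bp and 3196 in the 25 peaks at 600 to 1000 bp.

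**Figure D2:**
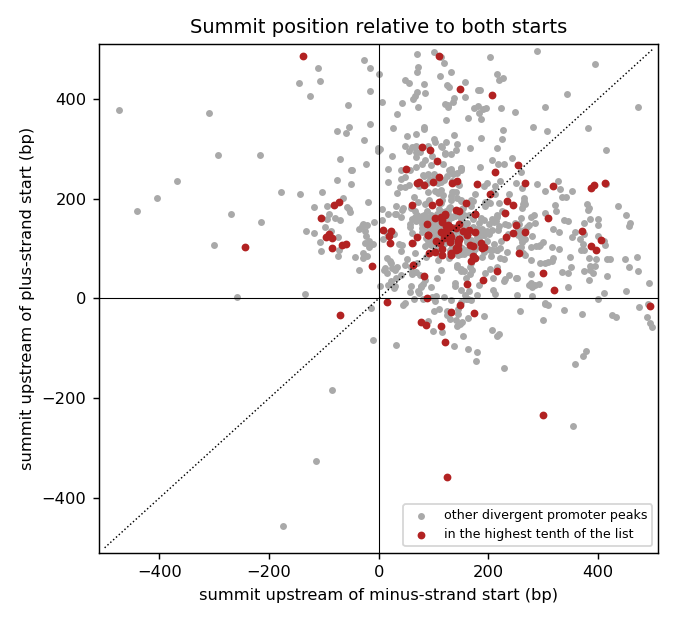
Distance of each divergent promoter summit upstream of the nearest minus-strand start (x axis, bp) and of the nearest plus-strand start (y axis, bp), where negative values lie downstream. Red points are the peaks among the 564 highest of the list and grey points the others. Most points lie in the upper right, where the 677 summits between the starts are. Of the 100 highest, 38 lie 75 to 175 bp upstream of both starts, a band chosen after seeing the data.

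Examples show both arrangements. At Art3/mRpS10 the starts were 257 bp apart, and the summit was 130 bp upstream of Art3 and 127 bp upstream of mRpS10. The peak ranked 5 in replicate 1 and 6 in replicate 2. At Tcs5/CHMP2B, a kinase of the KEOPS complex and an ESCRT-III subunit, the starts were 224 bp apart and the summit lay 112 bp from each, at rank 15 of the reproducible list, 9 in replicate 1 and 18 in replicate 2. At CG7601/CIA30, the second of which is an assembly factor of mitochondrial complex I, the gap was 220 bp and the distances were 105 and 115 bp, at rank 31. In all 3 the summit was within a few bases of the middle.

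Off-centre summits were found among the highest peaks too. At mRpS23/CenG1A, rank 13, the gap was 492 bp and the summit was 387 bp from mRpS23, of the small mitochondrial ribosomal subunit, and 105 bp from CenG1A, an Arf GTPase-activating protein. At Chro/Ssl1, rank 26, the summit was 82 bp inside Chro, a chromosomal chromodomain protein, and 187 bp upstream of Ssl1, a subunit of the transcription factor TFIIH. At mRpL23/CG9004, rank 40, it was 60 bp downstream of the nearest annotated mRpL23 start and 110 bp upstream of CG9004. Of the 15 highest divergent promoter peaks, 9 had the summit between the nearest starts. Among the other named pairs of these 15, CG5611/Mtl (rank 17) includes a Rac-type GTPase, Pdrg1/Pal1 (rank 21) a peptide-amidating lyase, eIF4EHP/CG18428 (rank 25) a cap-binding translational repressor, and Pex11ab/CG8320 (rank 50) a peroxisome factor. CG13390/CG17294 (rank 9), CG11309/CG7632 (rank 29), Fbw5/CG9147 (rank 42), CG1275/Elp5 (rank 47), which includes an Elongator subunit, and CG3437/CG3552 (rank 48) complete them. All 15 had a peak in both replicates, at ranks 5 to 53 in replicate 1 and 6 to 56 in replicate 2.

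Among the 200 highest divergent promoter peaks, gaps with the summit between the starts ran from 84 to 687 bp. The shortest was Dref/RpL13, at rank 586, where the gene for the DRE-binding factor DREF itself faces a ribosomal protein gene. Its summit was 24 bp from Dref and 60 bp from RpL13. Nelf-E/RpL14 (rank 268) had a gap of 127 bp and Bdp1/CG6565 (rank 307) of 129 bp, where Nelf-E is a subunit of the negative elongation factor and Bdp1 a subunit of the RNA polymerase III factor TFIIIB. The longest gaps were 621 bp at Acbp1/Piezo (rank 179), which includes a mechanosensitive channel, 645 bp at dpr14/spidey (rank 409) and 687 bp at app/CG32100 (rank 624). The nearest start was 228, 232 and 203 bp away at these 3. Of these 6 peaks, Acbp1/Piezo had the widest separation of the replicate summits, at 8162692 in replicate 1 and 8162845 in replicate 2 on 2L.

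The peaks were high for the list. Heights are the authors' signal values, whose scale is undefined in the sources, and only their ranks were used. The median rank was 2091 for divergent promoter peaks, 2768 for single-direction promoter peaks and 2999 for peaks outside promoters. Of the divergent promoter peaks, 132 (15.8%, 13.4 to 18.5) were among the 564 highest, as were 216 (12.7%, 11.2 to 14.4) of the single-direction peaks and 216 (6.96%, 6.09 to 7.91) of those outside promoters, against 10% of all. Divergent promoter peaks made up 23.6% of ranks 1 to 500 and 11.5% of ranks 4001 to 5636. In replicate 1 they made up 27.4% of ranks 1 to 500, 8.13% of ranks 4001 to 5636 and 1.22% of ranks 20001 to 30000. In replicate 2 the same ranks held 21.2%, 11.3% and 2.19%. Both replicates thus showed the same order.

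**Figure D3:**
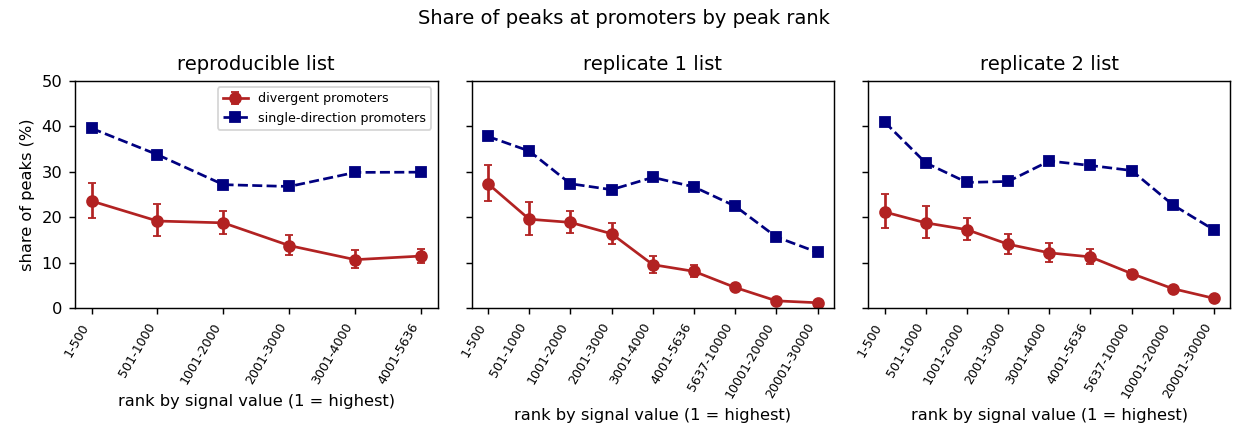
Share of peaks (y axis, %) at divergent promoters (red circles, with exact 95% binomial intervals) and at single-direction promoters (blue squares) by rank of the signal value (x axis, 1 is the highest) in the reproducible list and in each replicate list. The red line is at 23.6% in ranks 1 to 500 of the reproducible list, and at 27.4% and 21.2% in replicates 1 and 2, and it is lowest in the last bin of each replicate list.

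Divergent promoter peaks were held unevenly by the replicates. The reproducible list was derived from these lists, so a high match is built in. A replicate 2 peak overlapped 830 of them (99.4%, 98.6 to 99.8), against 98.6% of all reproducible peaks. A replicate 1 peak overlapped 773 (92.6%, 90.6 to 94.3), against 95.5% of single-direction peaks (94.4 to 96.5) and 96.8% of all reproducible peaks. Both replicates held 768 of them (92.0%), and none lacked a peak in both. The matched peaks ranked high in replicate 1, with a median of 1755 there against 2674 for single-direction peaks, while in replicate 2 the medians were 2166 and 2734. A median of 22 bp separated the replicate summits, against 23 bp for single-direction peaks.

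The 62 divergent promoter peaks with no replicate 1 match had a median rank of 3901 in the reproducible list and of 4004 in replicate 2. For 3 of them a replicate 1 summit lay within 1 kb, and the median distance to the nearest one was 4289 bp. The highest was mrn/CG12301, where mrn encodes a TFIIH subunit, at rank 1238 of the reproducible list and 1203 in replicate 2, with the summit 115 bp from mrn and 148 bp from CG12301. LSm1/Xpd, a decapping activator and a TFIIH helicase, followed at rank 1278. Of the 5 peaks with no replicate 2 match, Vps36/Liprin-beta was the highest, at rank 832 of the reproducible list and 548 in replicate 1. Vps36 is an ESCRT-II subunit. CRIF/SMC5 (rank 3067) and CG15706/CG15701 (rank 3243) came next.

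The DNA under the summits was rich in A and T. The GC content of the summit windows was 31.1% ± 9.74 (SD over 835 peaks) at divergent promoters, 34.8% ± 10.4 at single-direction promoters and 32.2% ± 8.30 outside promoters. It moved with height: divergent promoter peaks of ranks 1 to 1409 averaged 28.0%, and those of ranks 4228 to 5636 35.0%. The single-direction peaks of the same ranks averaged 30.7% and 38.3%. At pairs with gaps of 151 to 350 bp, the midpoints of 412 pairs with a peak averaged 26.7% ± 7.45, and those of 468 pairs without one 30.7% ± 9.83.

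Motifs were searched on both strands of the same windows, by exact letters. They were the DRE (TATCGATA), its core (ATCGAT), Motif 1 (GGTCACACT), the Motif 6 core (GGTATTTT), the Motif 7 core (CAGCNCTG), the BEAF-type element (CGATA), the GAGA element (GAGAG), the TATA element (TATAAA), 3 E-boxes of fixed letters, which are CAGCTG as bound by many bHLH dimers, CATATG as bound by others, and CACGTG as bound by Myc-type factors, and an E-box of any kind (CANNTG). Each DRE also holds its core and the BEAF-type element, and the 3 fixed E-boxes are counted again among E-boxes of any kind. A match is a run of letters in the window and not a shown binding site.

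The DRE and Motif 1 were more frequent at divergent promoter summits than at summits outside promoters, but most windows held neither. A DRE lay in 34 of the 835 windows (4.07%, 2.84 to 5.64), against 2.48% at single-direction promoters, 0.290% outside promoters and 1.51% of all reproducible peaks. The difference to single-direction promoters was 1.60 percentage points (Newcombe 95% interval 0.168 to 3.29). Windows of the same size centred 100 bp upstream of 1 start of every protein-coding gene held a DRE in 2.62%. The DRE was not more frequent at pairs with a peak than at pairs without: it lay at the midpoints of 3.69% of 840 pairs with a peak and of 5.60% of 1733 pairs without one, pairs of histone genes left out. At gaps of 151 to 350 bp the values were 1.46% and 1.71%, with a difference of −0.253 percentage points (−2.06 to 1.63). The 34 peaks with a DRE had a median rank of 2979, and the 801 without one had 2067. Motif 1 lay in 1.08% of the divergent promoter windows, 1.06% of the single-direction windows, 0.0966% of the windows outside promoters and 0.532% of all reproducible windows, and in 1.05% of the windows upstream of all genes. Any of the DRE, Motif 1, Motif 6 core and Motif 7 core lay in 9.94% of divergent promoter windows (8.0 to 12.2), against 7.49% of single-direction windows (6.28 to 8.85). At ranks 1 to 1409, 10 of 295 divergent promoter windows held a DRE (3.39%, 1.64 to 6.15), those at RpS25/CG4820 and RpL34a/Trmt61, printed above, among them.

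The share of divergent promoter windows with an E-box differed with the height of the peak. An E-box of any kind lay in 30.1% of divergent promoter windows, 34.1% of single-direction windows and 34.8% of windows outside promoters. The difference to single-direction windows was −4.08 percentage points (−7.86 to −0.189). Windows upstream of all genes held an E-box in 36.6%, and midpoints of pairs without a peak in 36.2%. At gaps of 151 to 350 bp an E-box lay at 27.7% of midpoints with a peak and 32.9% without (difference −5.24 points, −11.2 to 0.862). At ranks 1 to 1409 the shares were 23.1% of divergent promoter windows and 30.8% of single-direction windows, at ranks 1410 to 2818 33.2% and 32.9%, at ranks 2819 to 4227 31.1% and 36.1%, and at ranks 4228 to 5636 37.7% and 37.1%. GC content moved with height too, as given above, and its part in this was not tested. CAGCTG lay in 3.59% of divergent promoter windows against 4.48% of single-direction windows, and CATATG in 3.11% against 3.24%. Outside promoters CAGCTG lay in 3.03% and CATATG in 4.35%, and CACGTG lay in 0.719% of divergent promoter windows, 1.12% of single-direction windows and 0.386% outside promoters. The interval of the difference to single-direction windows was −2.41 to 0.845 points for CAGCTG and −1.50 to 1.46 points for CATATG, and both hold 0. At gaps of 151 to 350 bp, CAGCTG lay at 2.18% of midpoints of pairs with a peak and at 4.70% of those without (difference −2.52 points, −5.05 to −0.0365). The same difference was 0.193 points for CATATG (−2.24 to 2.75) and 0.544 points for CACGTG (−0.721 to 2.07), and both intervals hold 0. Over all gaps, CACGTG lay at 1.79% of midpoints with a peak (1.00 to 2.93) and 0.404% without (0.163 to 0.830). CAGCTG lay at 5.36% and 7.62% of these midpoints, and CATATG at 2.86% and 3.06%. The shares over all gaps are not matched for gap. The TATA element lay in 27.4% of divergent promoter windows against 22.1% of single-direction windows (difference 5.31 points, 1.76 to 8.98). It lay in 24.7% of windows outside promoters (2.76 points, −0.547 to 6.21) and in 18.2% of windows upstream of all genes. At gaps of 151 to 350 bp it lay in 32.5% of midpoints with a peak and 24.4% without (difference 8.17 points, 2.20 to 14.1). GC content was lower at divergent promoter windows and at these midpoints with a peak, as given above. Its part in the TATA differences was not tested. GAGAG, the element of GAGA factor, lay in 6.95% of divergent promoter windows against 10.2% of single-direction windows (difference −3.25 points, −5.42 to −0.899) and 8.82% of windows outside promoters (−1.88 points, −3.74 to 0.271). Midpoints of pairs without a peak held it in 6.69%, those of pairs with a peak in 7.38%, and windows upstream of all genes in 13.4%. At gaps of 151 to 350 bp the difference between pairs with and without a peak was 0.871 points (−2.49 to 4.35).

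**Figure D4:**
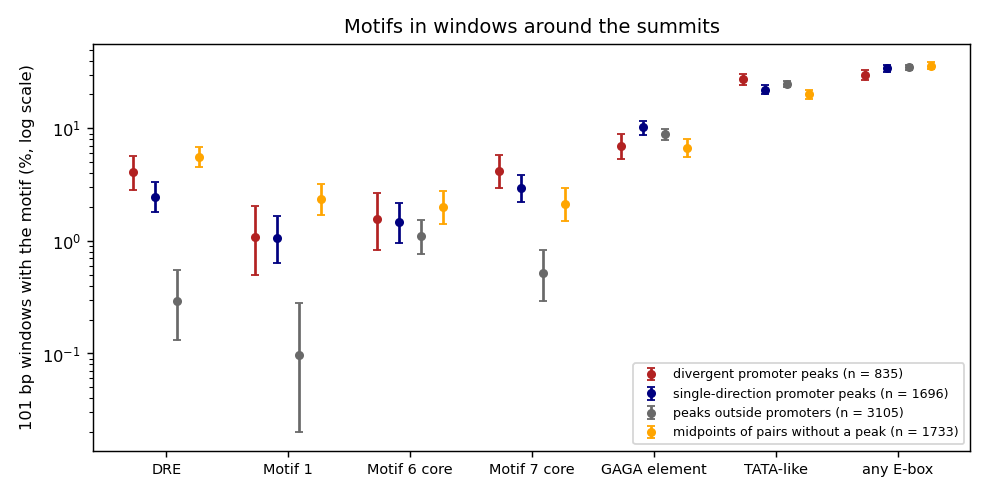
Share of windows, 50 bp to each side, with each motif (y axis, %, log scale) around the summits of divergent promoter peaks, single-direction promoter peaks and peaks outside promoters, and around the midpoints of head-to-head pairs without a peak; bars are exact 95% binomial intervals. The DRE is at 4.07% in divergent promoter peaks and at 0.290% outside promoters, but also at 5.60% in pairs without a peak, and E-boxes are at 30.1% to 36.2% in all 4 sets.

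Among gene lists, 29 of 92 cytosolic ribosomal protein genes (31.5%, 22.2 to 42) and 27 of 73 mitochondrial ribosomal protein genes (37.0%, 26.0 to 49.1) had a divergent promoter peak. The counts below are set beside 12.0% of all protein-coding genes and, because a gene needs a partner to count, beside 32.6% of the 4958 genes with a head-to-head partner within 1 kb. No list was tested, and a share near these values is no result about the list.

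Of the cytosolic ribosomal protein genes, 55 had a head-to-head partner, and 29 of those had a divergent promoter peak (52.7%, 38.8 to 66.3). With peaks at single-direction promoters included, 75 of the 92 had a promoter peak. The highest divergent promoter peaks of the list were at RpS27 with Nup37, a nucleoporin gene (rank 108), at RpL7 with Ripalpha (rank 152) and at RpL34b with CG8132 (rank 195). These ranked 71, 137 and 161 in replicate 1 and 134, 176 and 226 in replicate 2. The summit was off-centre at these genes: in 32 peaks shared by 1 cytosolic ribosomal protein gene and other genes, it was nearer to the ribosomal protein start in 27, at a median of 44 bp, against 227.5 bp to the partner. At single-direction promoters of the same list the median distance was 27 bp in 46 peaks. The 32 divergent promoter peaks had a median rank of 738.5, against 2091 for all divergent promoter peaks.

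Mitochondrial ribosomal protein genes showed another position. Of these genes, 58 had a head-to-head partner and 27 of these had a divergent promoter peak (46.6%, 33.3 to 60.1), while 31 had any promoter peak. In 26 peaks with 1 such gene the summit was nearer to it in 9, at a median of 132 bp, against 120 bp to the partner, with a median rank of 2439. The highest were those at mRpS10, mRpS23 and mRpL23 described above.

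Of 33 aminoacyl-tRNA synthetase genes, which charge tRNAs, 11 had a divergent promoter peak, and these were 47.8% of the 23 with a partner (26.8 to 69.4). SerRS/CG17260 (rank 296), Hem/IleRS (rank 473) and GluProRS/AP-1sigma (rank 609) were the highest. Of 25 genes for subunits of Mediator, which links transcription factors to RNA polymerase II, 10 had one, or 52.6% of the 19 with a partner (28.9 to 75.6), led by MED30/Rev1 (rank 392), elm/MED27 (rank 620) and CG12321/MED17 (rank 854). Respiratory complex genes had 17 of 87, or 39.5% of the 43 with a partner (25 to 55.6), led by ND-ASHI/Fum1 (rank 221), TppII/ND-MWFE (rank 608) and ND-51/CG13994 (rank 920). Proteasome genes had 12 of 48, and 11 of the 24 with a partner (45.8%, 25.6 to 67.2), led by l(2)37Bb/Rpn3 (rank 1145), Hat1/Rpn5 (rank 2496) and Rpn13/CtsL1 (rank 2605). Exosome genes, which act in RNA decay, had 4 of 11, or 44.4% of the 9 with a partner (13.7 to 78.8). They were led by Ski6/CG16812 (rank 998), Rrp6/CG33331 (rank 1719) and Csl4/Nup160 (rank 1751). All of these intervals reach down to or below the 32.6% of genes with a partner, except that of cytosolic and that of mitochondrial ribosomal proteins.

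Of 15 genes for TATA-binding protein associated factors, 2 had a divergent promoter peak, at Taf5/Pex6 (rank 291) and Taf2/CalpB (rank 714). This was 13.3% of the list and 18.2% of the 11 genes with a partner (2.28 to 51.8), an interval that holds 32.6%. Of 115 histone genes, 87 had a head-to-head partner and 1 had a divergent promoter peak, the histone variant gene His2Av with ball (rank 1771). Of 179 chemosensory receptor genes, 25 had a partner and 1 had such a peak, Ir60e with CG13585 (rank 4456). None of the 95 cuticular protein genes had one, and 5 of them had a partner. In no divergent promoter peak did both nearest genes belong to the same list: of 46 such pairs in the genome, 42 were histone pairs, and none of the 46 had a summit within 500 bp of both starts.

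**Figure D5:**
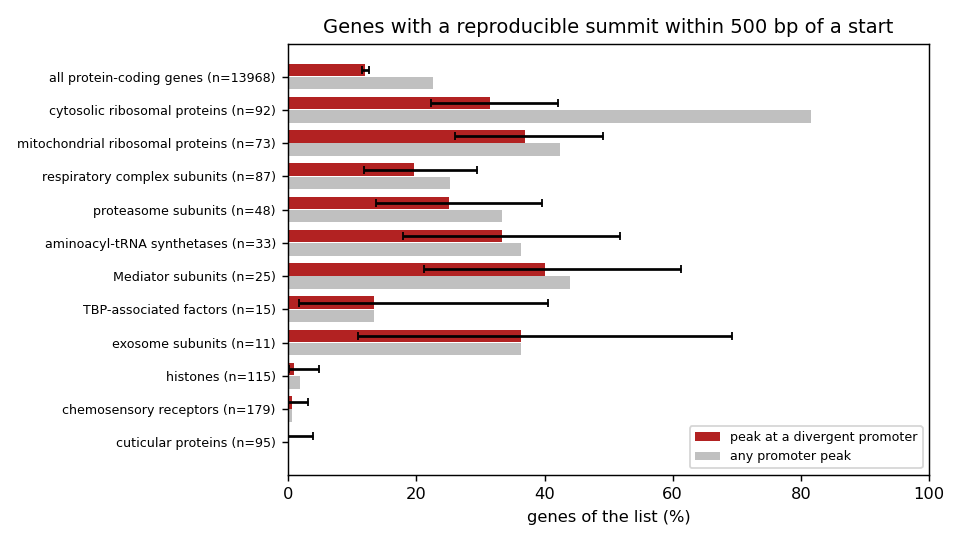
Share of the genes of each list (x axis, %) with a reproducible summit within 500 bp of a start, at a divergent promoter (red, with exact 95% binomial intervals) and at any promoter (grey); n is the number of genes. Cytosolic ribosomal protein genes are at 31.5% and 81.5%, mitochondrial ribosomal protein genes at 37.0% and 42.5%, and histone, chemosensory receptor and cuticular protein genes are at or near 0.

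At the limit of the rule, 8 divergent promoter peaks had their farther start at 490 to 500 bp, with a median rank of 2847, and 6 peaks just outside had it at 501 to 510 bp, with a median rank of 3655. A start of a noncoding RNA gene lay within 500 bp of 17 divergent promoter summits (2.04%, 1.19 to 3.24) and of 105 single-direction summits (6.19%, 5.09 to 7.45).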

How the data were processed

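The deposited narrowPeak lists (dm6) cover 2 replicates, both pooled, and the list thresholded by the irreproducible discovery rate, here called reproducible. Per the file headers and labels, the replicate lists used 1 shared control alignment. The aligner and the caller are not named in the labels or headers used here. The authors deposited a signal value, used here as a rank within 1 list, and a −log10 q-value for each peak, by which 763 of the 773 matched replicate 1 peaks and all 830 matched replicate 2 peaks have q of 0.05 or less. Starts were 5′ ends of protein-coding transcripts in Ensembl release 115 (BDGP 6.54), 19630 in all. Summits were used as given, although 2 lie outside their stated interval. Sequences came from the Release 6 reference genome. Counting was done in Python (3.11.15) with pandas (2.3.3), numpy (2.4.6) and scipy (1.17.1), drawing with matplotlib (3.10.9), and the classification was tested on simulated data. The text names the 15 highest peaks, up to 3 genes with the highest peaks of each list, the 3 shortest and longest gaps among the 200 highest, and the 3 highest peaks missing from 1 replicate, of which 1 is not reported here. The members, lists and motifs were chosen with earlier results of these data known.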

Additional observations from a re-analysis of the deposited data

How the results depend on the processing

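Against the reported shares of 14.8% of reproducible peaks, 81.1% of summits between the starts and 32.1% of head-to-head pairs with a peak, a density ratio of 4.02 and a median rank at 37.1% of the list, other choices gave these values. The 5636 highest peaks of 1 replicate, which leave out the other replicate, gave shares of 14.5 to 14.6%, 79.5 to 83.6% and 31.3 to 31.4%, density ratios of 3.81 to 4.11, DRE shares of 4.04 to 4.14% and median ranks at 33.3 to 39.0%. The 2818 highest reproducible peaks gave 18.3% of peaks, a ratio of 4.89, 20.3% of pairs and a median rank at 44.1%. A distance of 250 bp gave 9.55% of peaks, a ratio of 5.44, 21.8% of pairs and a median rank at 34.2%. A distance of 1000 bp gave 19.6% of peaks, a ratio of 2.84, 77.1% of summits between, 39.8% of pairs and a median rank at 40.5%. With 1 start per gene, 13.6% of peaks were divergent and 75.4% of summits were between. Windows of 100 bp to each side held a DRE in 10.3%, as a wider window must hold more, against 4.07%. Of the divergent promoter peaks, 74.4% matched in both replicates with an overlap of 50% of both peaks and 88.7% with summits within 100 bp, against 92.0%. The remaining alternatives moved these values by less than their 95% intervals, or the GC content by less than 1 SD, and no direction was reversed. No paired analysis was possible because there is 1 group. The depth of the libraries is unknown, so absence of a peak does not show absence of Fer3.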
